A study of Mus musculus with 12 samples.

Results

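Integrin α8β1, its ligand nephronectin and the Fraser complex were followed here as 6 genes, *Itga8*, *Itgb1*, *Npnt*, *Fras1*, *Frem1* and *Frem2*, out of 24062 gene symbols counted by RNA sequencing in mouse kidney. The 6 were chosen by name and all 6 had a row in every kidney. Whole kidneys were taken at postnatal day 3 (P3) from 4 groups of 3. LIN28B OE mice, on C57BL/6, carried the alleles *lox-STOP-lox-rtTA* and *TRE-LIN28B* together with *Wt1-Cre*, so that a brief doxycycline pulse late in gestation turned on human LIN28B in the *Wt1*-expressing lineage, which covers cap mesenchyme, cortical stroma and the nephrons made from it. LIN28B controls were C57BL/6 littermates. The let-7 KO mice lacked *let-7a1*, *let-7d* and *let-7f1* in every cell on a mixed CD1 and C57BL/6 background, and the let-7 WT kidneys came from their littermates. In each group replicates 1 and 2 came from litter 1 and replicate 3 from litter 2. The sources used here do not say whether the kidneys of one litter came from separate animals, so p values measure the spread between these kidneys.

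Integrins are receptors of paired α and β subunits that hold cells to the extracellular matrix. The α8 subunit pairs with β1 on the metanephric mesenchyme and binds nephronectin, which the ureteric bud lays down in its basement membrane. The matrix proteins FRAS1, FREM1 and FREM2 assemble into a complex in the same basement membrane and help to keep nephronectin there. Loss of any of these contacts in mice can prevent the ureteric bud from growing out, with low *Gdnf* in the mesenchyme and absent kidneys at birth. After birth α8 is best known in mesangial cells and interstitium.

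Both mouse models act on the let-7 family, a group of microRNAs that share bases 2 to 8, the seed, through which they pair with messenger RNAs. The 3 microRNAs deleted in the let-7 KO mice are shown because their seed sets which letters to look for in the 6 genes. Their sequences are from RefSeq (GRCm38.p6, chromosome 13, minus strand), with the seed in capitals.
let-7a-5p: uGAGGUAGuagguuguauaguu
let-7d-5p: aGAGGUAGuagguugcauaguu
let-7f-5p: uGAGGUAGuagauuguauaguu
All 3 have the seed GAGGUAG. Perfect pairing with it needs CTACCTC in the transcript, and an A after that sequence gives the longer 8-base site.

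The longest annotated 3′ UTR of each of the 6 genes (GENCODE M21, mm10) was searched on the sense strand for these letters. *Fras1* and *Frem2* each held 1 full 8-base site, and *Itga8* held the shorter TACCTCA, which pairs with bases 2 to 7 and ends in A. The matches are shown with 23 bases each because they are where the 6 genes differ in their possible contact with let-7, with the matching letters in capitals.
Fras1, chr5:96781925-96781947, plus strand: caactgagCTACCTCAtgaaaca
Frem2, chr3:53514426-53514448, minus strand: atgtttggCTACCTCAgaatttg
Itga8, chr2:12108075-12108097, minus strand: tcattgtaaTACCTCAcatttat
*Frem2* had a further match to TACCTC alone, at chr3:53514459-53514481 on the minus strand.
None of these letters was in the 3′ UTRs of *Itgb1* (1112 bases), *Npnt* (2685 bases) or *Frem1* (2479 bases). The 8-base site contains all the shorter ones, so these counts overlap. Among 19255 genes with a 3′ UTR, 3.2% held the 8-base site, 9.3% held CTACCTC and 10.1% held TACCTCA, while 24.0% held the 6 bases TACCTC. Among the 5135 genes with a 3′ UTR of at least 2000 bases, the shares were 7.1%, 20.1%, 23.2% and 49.9% in the same order. A match is a description of the letters and not a measured contact.

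Library totals ran from 39926235 to 61872736 counts. *Lin28b* itself, a row for the mouse gene while the transgene is human, had 71 to 232 counts in LIN28B OE kidneys and 0 to 33 in their controls. The paper, by qRT-PCR, saw endogenous *Lin28b* mRNA unchanged in this model. Whether reads of the human transgene were counted in this row was not tested. The rows of *Mirlet7a-1*, *Mirlet7d* and *Mirlet7f-1* were at 0 in every let-7 KO kidney. In the let-7 WT kidneys *Mirlet7d* ran from 0 to 35 counts, *Mirlet7a-1* from 0 to 8 and *Mirlet7f-1* from 0 to 2. These rows are so low that a count of 0 says little about the deletion. Among cell type markers, the summed level of 8 cap mesenchyme genes was 343 to 407 CPM (counts scaled to a common library size) in LIN28B OE kidneys and 67.3 to 84.6 in controls, and that of 5 proximal tubule genes was 828 to 998 in LIN28B OE against 1734 to 1846. In let-7 KO kidneys cap mesenchyme genes summed to 76.6 to 122 CPM against 52.9 to 53.5 in let-7 WT, and proximal tubule genes to 1768 to 2249 against 2431 to 2843. In whole kidney, fewer cells of a type and less RNA per cell cannot be told apart.

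The levels of the 6 genes were compared per kilobase of the longest annotated transcript, as CPM per kb, since the transcripts run from 3815 bases (*Itgb1*) to 15848 bases (*Fras1*). In LIN28B controls the order was *Itgb1* with 198 ± 17.8 CPM per kb (SD, n = 3), *Npnt* with 139 ± 15.4, *Itga8* with 21.4 ± 4.42, *Frem1* with 6.62 ± 0.65, *Frem2* with 4.92 ± 0.77 and *Fras1* with 3.59 ± 0.334. No neighbours in that order overlapped between the control kidneys. In let-7 WT kidneys *Itgb1* (184 ± 45.4) and *Npnt* (179 ± 27.8) overlapped, as did *Frem1*, *Fras1* and *Frem2* in turn, with means between 4.32 and 5.69 CPM per kb. The common β1 subunit was thus counted far above the α8 subunit that shares it, and the 3 Fraser complex genes lay close to each other at the low end. Each gene had at least 1603 counts in every kidney (the lowest was *Frem1*).

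**Figure D1:**
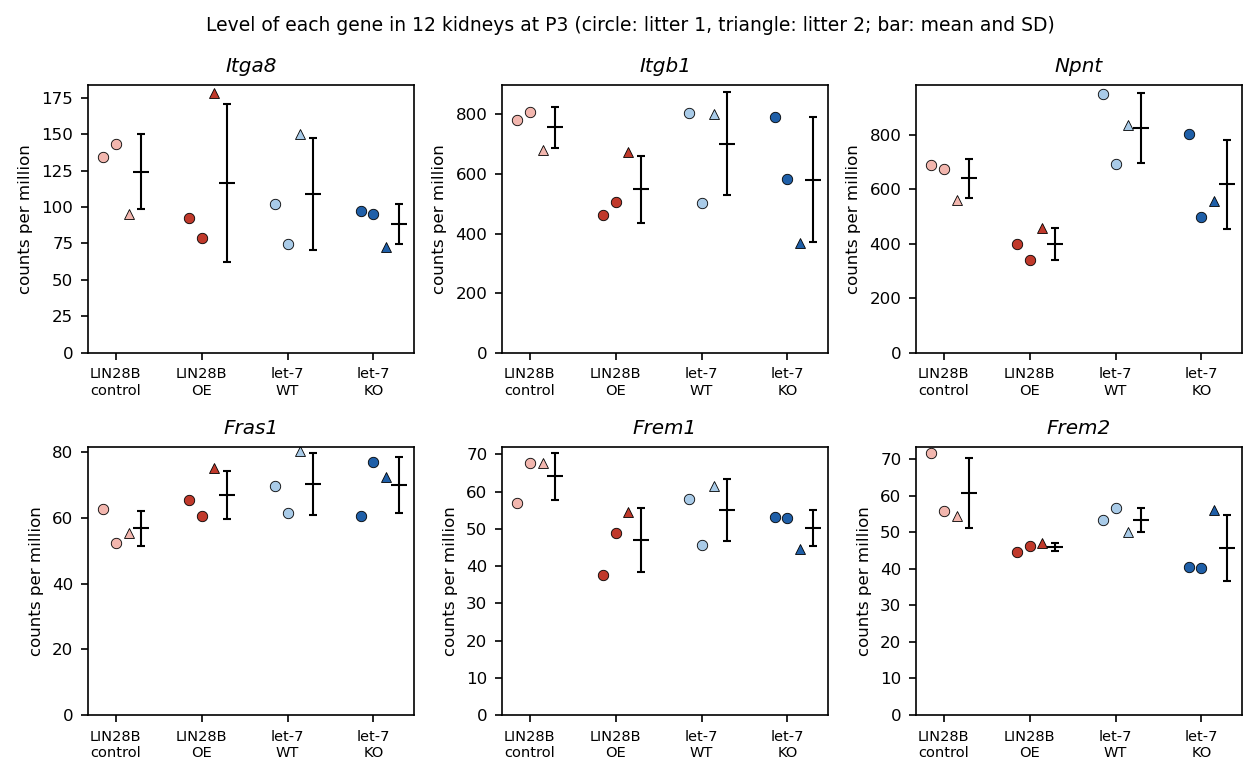
CPM of each of the 6 genes (y axis, from 0) in the 3 kidneys of each group (x axis), with circles for litter 1, triangles for litter 2, and a bar for the mean and SD. *Npnt* is lower in all 3 LIN28B OE kidneys than in their controls, whereas the LIN28B OE kidneys of *Itga8* span 78.7 to 178 CPM.

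*Npnt*, which encodes nephronectin, lies at chr3:132881745-132950291 on the minus strand of mm10. It showed the lowest p value of the 6 genes in LIN28B OE kidneys. Its level was 689, 672 and 558 CPM in the 3 control kidneys and 398, 339 and 457 CPM in the 3 LIN28B OE kidneys. Every LIN28B OE kidney was below every control. The log2 fold change was -0.68 (SE 0.151, 95% interval -1.02 to -0.34), a level 0.624 times that of the controls. Its p value was 0.00124 and the Benjamini-Hochberg adjusted p was 0.063 in edgeR's quasi-likelihood test, which missed the threshold of 0.05. The estimate was below 0 in all 16 other fits run, and 6 of them passed the threshold. These were DESeq2 (adjusted p = 0.00153), edgeR's exact test (0.00534), genes with at least 1 CPM in every kidney (0.0375, where 3.14% of all genes passed), the covariate for transcript length and the fits without litter 2 (where 16.3% of all genes passed) or without the third LIN28B OE kidney. The other 10 gave adjusted p values from 0.0584 with no filter to 0.298 without the second control, with 0.118 for litter as a replicate block in edgeR.

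In let-7 KO kidneys *Npnt* had 804, 496 and 556 CPM, against 947, 691 and 835 in let-7 WT. The groups overlapped through the first let-7 KO kidney, while the other 2 lay below all 3 let-7 WT kidneys. The log2 fold change was -0.43 (95% interval -0.91 to 0.06, adjusted p = 0.509, edgeR's quasi-likelihood test), so a decrease of the size seen in LIN28B OE lies within that interval, as does no change. The test of the difference between the effects of the models gave -0.27 (95% interval -0.84 to 0.30, adjusted p = 0.9747, edgeR). Within litters 1 and 2 the log2 difference was -0.89 and -0.29 in the LIN28B model and -0.36 and -0.59 in the let-7 model, so *Npnt* was lower in both litters of each. The summed proximal tubule markers were lower in the same groups as *Npnt*, with no overlap between the groups in either model. Collecting duct markers, for the ducts that the ureteric bud forms, had sums that overlapped in both models. They were 1516 to 2128 CPM in LIN28B OE against 2089 to 2422, and 2644 to 3195 in let-7 KO against 1673 to 3199. Of these 5 genes, *Calb1* and *Hsd11b2* were below every control in all mutant kidneys of both models. Of all genes, 13.5% were so in the LIN28B model and 8.79% in the let-7 model. *Aqp2*, *Aqp3* and *Krt8* were not. In let-7 KO *Krt8* was above every WT kidney (log2 fold change 0.31, beside 7.87% of all genes) and *Aqp2* had 0.55 with overlap. The list's median log2 fold change was -0.14 in LIN28B OE and 0.15 in let-7 KO kidneys. Markers of the ureteric tip (6 genes) summed to 308 to 508 CPM in LIN28B OE against 273 to 289 in controls, higher with no overlap. In the let-7 model their sums overlapped, at 189 to 260 CPM in KO against 170 to 242 in WT. The part of any of these cell types in the *Npnt* values was not tested.

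*Itga8* encodes the α8 subunit and lies at chr2:12106632-12301922 on the minus strand. Its level was 134, 143 and 95.03 CPM in LIN28B controls and 92.1, 78.7 and 178 CPM in LIN28B OE. The highest of all 12 kidneys was thus the third LIN28B OE kidney, and the other 2 were below all controls. The log2 fold change was -0.09 (SE 0.298, 95% interval -0.76 to 0.58, adjusted p = 0.92, edgeR's quasi-likelihood test), and that interval holds both a 1.49-fold increase and a decrease to 0.592 of the control level. The estimate was 0.03 without the second control, 0.06 without the first and 0.14 without the second LIN28B OE kidney. Within litter 1 the log2 difference was -0.70 between 2 LIN28B OE and 2 control kidneys, and within litter 2 it was 0.91 between 1 and 1.

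In the let-7 model *Itga8* had 102, 74.5 and 150 CPM in WT and 97.4, 95.1 and 72.4 CPM in KO. Only the third KO kidney was below every WT kidney. The log2 fold change was -0.32 (95% interval -0.88 to 0.25, adjusted p = 0.682, edgeR's quasi-likelihood test). Here the litters also differed, with a log2 difference of 0.14 within litter 1 and -1.05 within litter 2, the opposite order to that of the LIN28B litters. *E030013I19Rik* overlaps *Itga8* on the opposite strand and had 0.0551 to 8.87 CPM. The strand setting of the counting was not given in the sources used here, so reads of this overlap cannot be assigned with certainty.

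*Itgb1* encodes β1, the subunit shared by many α subunits, and lies at chr8:128685654-128733200 on the plus strand. It had 781, 808 and 679 CPM in LIN28B controls and 463, 507 and 674 CPM in LIN28B OE. All 3 LIN28B OE kidneys were below the lowest control, the third of them narrowly. The log2 fold change was -0.46 (SE 0.161, 95% interval -0.82 to -0.10, adjusted p = 0.174, edgeR's quasi-likelihood test). Within litter 1 the log2 difference was -0.71 and within litter 2 it was -0.01. In let-7 WT it had 803, 502 and 800 CPM, and in let-7 KO 791, 582 and 370 CPM, with a log2 fold change of -0.28 (95% interval -0.91 to 0.34, adjusted p = 0.758, edgeR).

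The third LIN28B OE kidney was the highest of its group for *Itga8*, *Itgb1* and *Npnt*, and for *Itga8* it lay above all controls. Without it, the log2 fold change in edgeR's quasi-likelihood test was -0.65 for *Itgb1* (adjusted p = 0.00601), -0.80 for *Npnt* (adjusted p = 0.0049) and -0.55 for *Itga8* (adjusted p = 0.0798). Over all genes, 2074 of 16258 (12.8%) passed the threshold without this kidney and 194 of 15793 (1.23%) with it.

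A property of the libraries moved with both integrin genes. For each library a length slope was taken, the slope of a gene's deviation from its mean log2 CPM on the log2 of its transcript length, so that a library with a negative slope is short of long transcripts. It ran from -0.0152 to 0.125 in LIN28B controls, from -0.065 to 0.107 in LIN28B OE, from -0.0636 to 0.12 in let-7 WT and from -0.169 to 0.0169 in let-7 KO. In the 6 kidneys with a slope below 0, *Itga8* was at 72.4 to 95.1 CPM, and in the 6 kidneys with a slope above 0 it was at 97.4 to 178 CPM. These ranges of *Itga8* did not overlap. For *Itgb1* the ranges were 370 to 679 and 674 to 808 CPM. For *Npnt* the ranges overlapped, at 339 to 691 CPM (median 526) and 457 to 947 CPM (median 746). Within each group, however, *Npnt* was lower in every kidney with a slope below 0 than in those above 0. *Frem1* was at 37.6 to 67.8 and 53.2 to 67.8 CPM. Apart from the third LIN28B control (67.8 CPM), its kidneys with a slope below 0 lay below all those above 0. *Fras1* and *Frem2* overlapped widely between kidneys of either sign. *Fras1* (15848 bases), *Frem2* (12348 bases) and *Frem1* (9690 bases) have the longest transcripts of the 6 genes. Why the slope and the levels of these genes moved together was not tested.

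**Figure D2:**
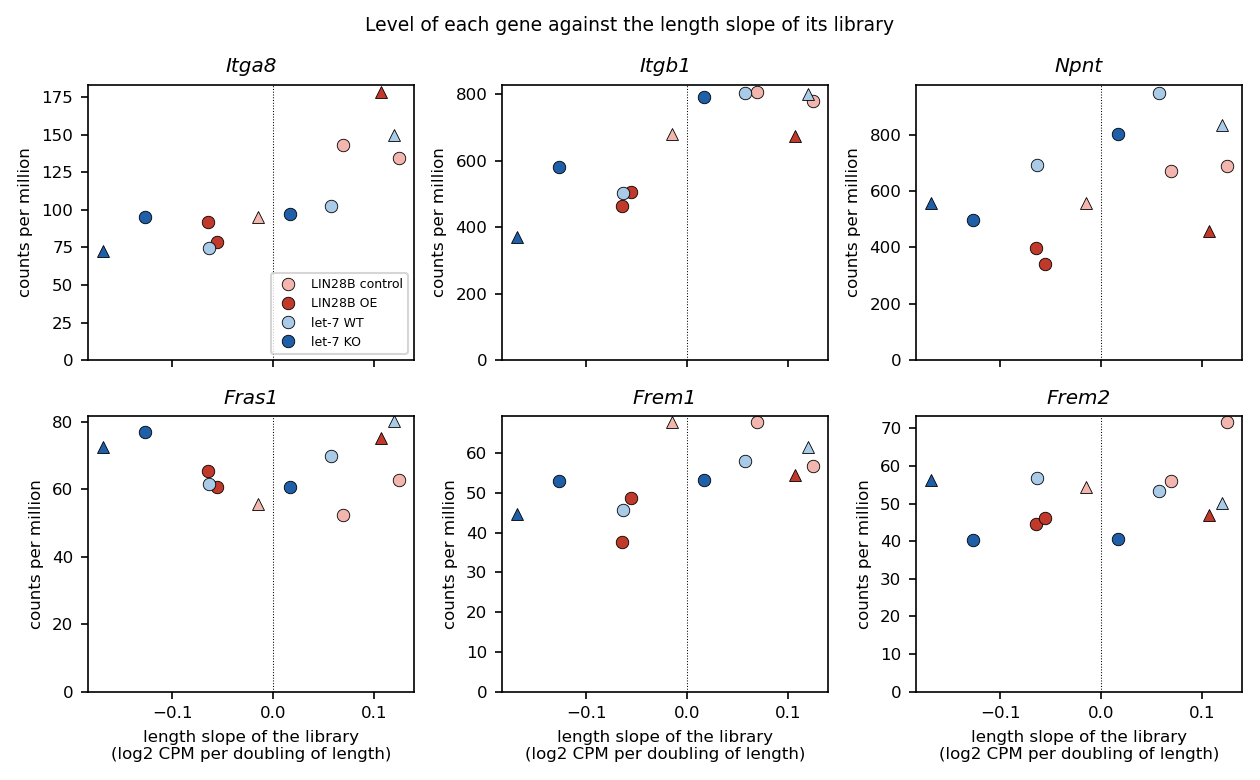
CPM of each gene (y axis, from 0) against the length slope of its library (x axis, log2 CPM per doubling of transcript length), 1 point per kidney, coloured by group, with circles for litter 1 and triangles for litter 2. At negative slopes *Itga8* stays at or below 95.1 CPM, and *Npnt* in LIN28B OE is below its controls on both sides of 0.

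With the length slope as a covariate in edgeR's quasi-likelihood test, the log2 fold change of *Itga8* turned to 0.19 in the LIN28B model (adjusted p = 0.514) and to 0.18 in the let-7 model (adjusted p = 0.867). That of *Itgb1* was -0.32 in the LIN28B model (adjusted p = 0.0483, where 6.12% of all genes passed) and turned to 0.23 in the let-7 model (adjusted p = 0.806). *Npnt* kept its direction, with -0.55 in the LIN28B model (adjusted p = 0.0103) and -0.13 in the let-7 model (adjusted p = 0.892). The *Npnt* estimate in LIN28B OE kidneys was thus below 0 with and without this covariate.

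*Fras1*, *Frem1* and *Frem2* encode large secreted or membrane-anchored matrix proteins that stabilise each other in the complex. *Fras1* (chr5:96373955-96784728, plus strand) had 62.8, 52.5 and 55.5 CPM in LIN28B controls and 65.5, 60.7 and 75.1 CPM in LIN28B OE. It was the single one of the 6 genes with a positive estimate, a log2 fold change of 0.24 (SE 0.16, 95% interval -0.12 to 0.60, adjusted p = 0.483, edgeR's quasi-likelihood test). The groups overlapped through the second LIN28B OE kidney and the first control. In the let-7 model it had 69.8, 61.4 and 80.3 CPM in WT and 60.7, 77.0 and 72.4 CPM in KO, a log2 fold change of -0.03 (95% interval -0.44 to 0.39). The sign of that estimate turned with the scaling, being 0.00031 with RLE normalization, and was 0.07 without the third WT kidney and 0.05 without the first KO kidney.

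*Frem1* (chr4:82897920-83052339, minus strand) had 56.9, 67.8 and 67.8 CPM in LIN28B controls and 37.6, 48.8 and 54.4 CPM in LIN28B OE. The groups did not overlap, and the log2 fold change was -0.45 (SE 0.183, 95% interval -0.86 to -0.04, adjusted p = 0.238, quasi-likelihood test of edgeR). In let-7 WT it had 58.0, 45.7 and 61.6 CPM and in let-7 KO 53.2, 52.9 and 44.7 CPM, a log2 fold change of -0.15 (95% interval -0.60 to 0.30). The groups overlapped there.

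*Frem2* (chr3:53513938-53657355, minus strand) had 71.7, 56.0 and 54.5 CPM in LIN28B controls and 44.6, 46.2 and 47.0 CPM in LIN28B OE. The LIN28B OE kidneys were the most alike of any group for this gene, with a coefficient of variation of 2.64%, and all were below the controls. The log2 fold change was -0.40 (SE 0.166, 95% interval -0.77 to -0.03, adjusted p = 0.242, edgeR's quasi-likelihood test). In the let-7 model *Frem2* had 53.4, 56.7 and 50.1 CPM in WT and 40.6, 40.2 and 56.1 CPM in KO. Both litter 1 KO kidneys were below every WT kidney and the litter 2 kidney was not, with a log2 fold change of -0.24 (95% interval -0.71 to 0.22, adjusted p = 0.709, edgeR).

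**Figure D3:**
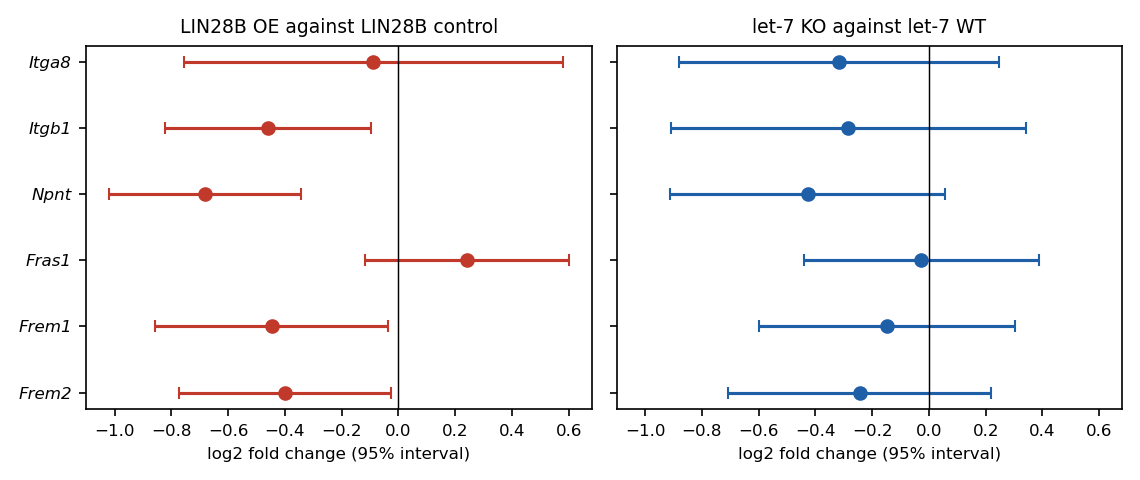
Log2 fold change (x axis, points) with its 95% interval (bars) from edgeR's quasi-likelihood fit for each gene (y axis), LIN28B OE against control on the left and let-7 KO against WT on the right. On the left the intervals of *Itgb1*, *Npnt*, *Frem1* and *Frem2* lie below 0, and on the right all 6 intervals include 0.

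Of the 6 genes, 0 passed an adjusted p of 0.05 in LIN28B OE kidneys with edgeR's quasi-likelihood test, where 1.23% of all genes tested did. At an unadjusted p below 0.05 there were 4, *Npnt*, *Itgb1*, *Frem1* and *Frem2*, beside 18.0% of all genes. At the adjusted threshold DESeq2 called 1 of the 6, *Npnt*, and 7.89% of all genes, and edgeR's exact test called the same 1 and 6.59% of all genes. At an unadjusted p below 0.01, *Npnt* was the 1 gene of the 6, beside 7.33% of all genes. In 4 of the 6 genes every LIN28B OE kidney was below every control, against 13.5% of all genes tested, and in 0 was every LIN28B OE kidney above, against 10.3%. Within litters 1 and 2 the log2 differences were -0.54 and -0.32 for *Frem1*, -0.48 and -0.21 for *Frem2* and 0.14 and 0.44 for *Fras1*. For *Npnt*, *Itgb1*, *Frem1* and *Frem2* exact two-sided permutation tests gave p = 0.1, the smallest value that 3 against 3 kidneys allow. Over the 6 genes the log2 fold change had a median of -0.42, against -0.02 over all genes tested, -0.08 for transcripts of 3 to 6 kb and -0.03 for those of at least 9 kb.

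In let-7 KO kidneys 0 of the 6 genes passed the adjusted threshold in edgeR's quasi-likelihood test, where 0.0194% of all genes did, and 0 had an unadjusted p below 0.05, against 10.8% of all genes. DESeq2 and edgeR's exact test also called 0 of the 6, against 1.31% and 0.716% of all genes. At an unadjusted p below 0.01 there were 0 of 6, against 2.73% of all genes. No gene of the 6 had groups that stood apart, against 8.79% of all genes for lower and 7.87% for higher KO kidneys. All 6 log2 fold changes were below 0, with a median of -0.26 against -0.02 over all genes tested. Genes with transcripts of 3 to 6 kb, such as *Itga8*, *Itgb1* and *Npnt*, had a median of -0.15, and those of at least 9 kb, such as the Fraser complex genes, of -0.09. The third and the second let-7 KO library had the lowest length slopes of the 12.

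The difference between the effects of the models was past the threshold for 0 of the 6 genes in edgeR, beside 0.00602% of all genes. At an unadjusted p below 0.05 there were 0 of 6 against 6.27% of all genes, and in DESeq2 0 of 6 against 0.609%. Its estimates ran from -0.32 for *Frem1* to 0.25 for *Fras1*. The control groups were also set against each other, since they differ in strain, litters and doxycycline, which cannot be told apart. None of the 6 passed in edgeR's quasi-likelihood test, where 0.627% of all genes did. At an unadjusted p below 0.05 there were 0 of 6 against 9.58% of all genes, and in DESeq2 0 of 6 against 2.39%. The largest estimates were for *Npnt*, 0.37 higher in let-7 WT on the log2 scale (95% interval -0.04 to 0.77), and *Fras1*, 0.31 higher (95% interval -0.04 to 0.66).

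The balance within the Fraser complex was read from ratios of read counts in the same kidney, chosen after the values were seen and therefore given with no test. The ratio of *Fras1* to *Frem2* counts was 0.876, 0.938 and 1.02 in LIN28B controls and 1.47, 1.31 and 1.60 in LIN28B OE. It was 1.31, 1.08 and 1.60 in let-7 WT and 1.496, 1.91 and 1.29 in let-7 KO. The LIN28B controls were thus the lowest of the 12 kidneys, and the let-7 groups overlapped each other. For *Fras1* to *Frem1* the ratio ran from 0.774 to 1.10 in LIN28B controls, from 1.24 to 1.74 in LIN28B OE, from 1.20 to 1.34 in let-7 WT and from 1.14 to 1.62 in let-7 KO. The ratio of *Frem1* to *Frem2* overlapped in all 4 groups, with means between 1.02 and 1.14. *Fras1* and *Frem2*, which both carry the 8-base let-7 site shown above, thus had estimates of opposite sign in LIN28B OE kidneys, neither of them past the threshold.

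**Figure D4:**
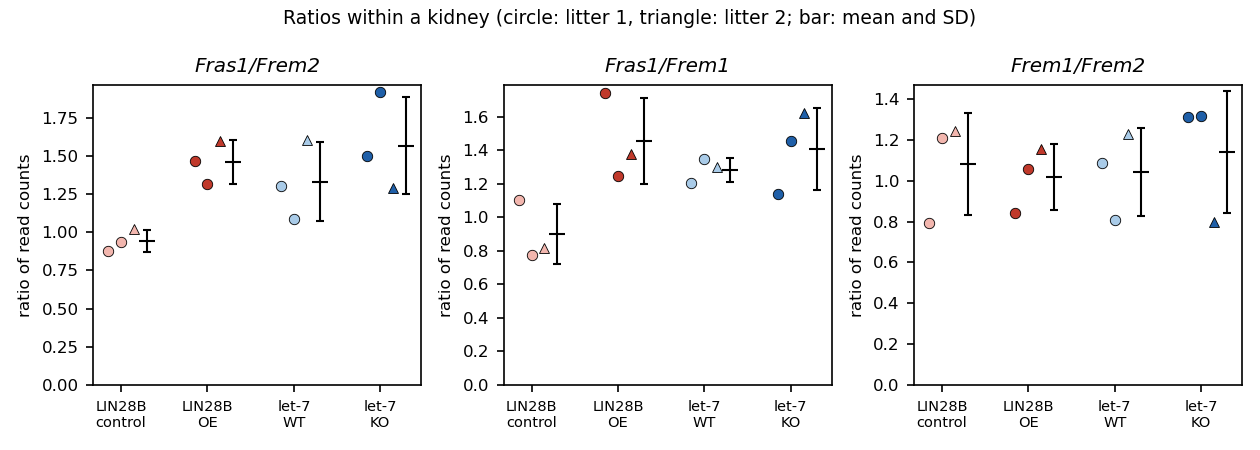
Ratio of read counts within a kidney (y axis, from 0) for 3 pairs of Fraser complex genes in the 4 groups (x axis), with circles for litter 1, triangles for litter 2, and a bar for the mean and SD. For *Fras1* to *Frem2* the 3 LIN28B controls lie between 0.876 and 1.02 and the other 9 kidneys between 1.08 and 1.91.

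Other parts of the complex and of its surroundings were taken from lists written with results of these data known. Of 5 Fraser complex partners, 0 passed the adjusted threshold in either model, with all 5 tested in the LIN28B model and 4 in the let-7 model. *Frem3*, a close relative of *Frem1* and *Frem2*, was nearly absent, at 0 to 2.34 CPM. *Grip1*, the scaffold protein needed to bring FRAS1 to the cell surface, had a log2 fold change of -0.11 in LIN28B OE and 0.60 in let-7 KO kidneys (adjusted p = 0.899 and 0.726, edgeR). *Vwa2*, which encodes a basement membrane protein that binds the complex, had 0.23 and 0.47 (adjusted p = 0.602 and 0.657, edgeR). The partners summed to 87.8 to 101 CPM in let-7 KO and 74.6 to 85.8 CPM in let-7 WT, and overlapped in the LIN28B model.

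Among 6 other ligands of α8β1, 1 fell in LIN28B OE kidneys and 0 passed in let-7 KO. *Spp1*, the gene of osteopontin, had 1682, 1716 and 1534 CPM in controls and 926, 810 and 570 CPM in LIN28B OE. It fell by 1.10 on the log2 scale (SE 0.167, adjusted p = 0.0184, quasi-likelihood test of edgeR), with all 3 LIN28B OE kidneys below the controls. In let-7 KO kidneys its log2 fold change was -0.65 (adjusted p = 0.39, edgeR). *Egfl6*, a ligand related to nephronectin, had -0.52 in LIN28B OE and -0.21 in let-7 KO (adjusted p = 0.328 and 0.833), the fibronectin gene *Fn1* had -0.21 in each (adjusted p = 0.511 and 0.707), and the tenascin gene *Tnc* had 0.01 and 0.27 (adjusted p = 0.988 and 0.807). *Vtn*, which encodes vitronectin, did not exceed 1.98 CPM. The list's median log2 fold change was -0.47 in LIN28B OE and -0.39 in let-7 KO kidneys.

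The other α subunits that pair with β1 (11 genes), the other β subunits (7 genes) and 13 integrin adhesion effectors, which link integrins to the cytoskeleton, had 0 genes past the threshold in either model. Their median log2 fold changes in LIN28B OE kidneys were -0.28, -0.65 and -0.16, and in let-7 KO kidneys -0.17, -0.10 and -0.17. For the effectors the summed level was 1198 to 1266 CPM in LIN28B OE kidneys and 1350 to 1487 CPM in controls, while the let-7 groups overlapped. For the α subunits it was 397 to 520 CPM in let-7 KO and 538 to 660 CPM in let-7 WT, and for the β subunits 276 to 302 against 313 to 335 CPM, while the LIN28B groups overlapped for both.

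The Gdnf-Ret pathway, by which the mesenchyme calls the ureteric bud and which needs the α8β1 contact in the early kidney, was covered by 7 genes. In LIN28B OE kidneys 2 of them rose, *Gdnf* and *Etv4*, and 0 fell. *Gdnf*, the mesenchymal growth factor, had 4.56, 4.18 and 2.68 CPM in controls and 12.9, 15.2 and 22.9 CPM in LIN28B OE kidneys. Its log2 fold change was 2.16 (SE 0.345, adjusted p = 0.0212, edgeR's quasi-likelihood test). *Etv4*, a transcription factor induced by Ret signalling, had 1.06 (adjusted p = 0.0291), the receptor gene *Ret* 1.47 (adjusted p = 0.131), and *Wnt11*, a Ret target at the ureteric tip, 0.16 (adjusted p = 0.653, all by the quasi-likelihood test of edgeR).

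Among let-7 KO kidneys 0 of the 7 passed. *Gdnf* had 1.18, 1.05 and 1.54 CPM in WT and 3.31, 5.85 and 8.44 CPM in KO, with no overlap and a log2 fold change of 2.20 (SE 0.625, adjusted p = 0.362, edgeR). *Ret* had 0.85 and *Wnt11* 0.27 (adjusted p = 0.839 and 0.707). The list's median was 0.30 in LIN28B OE and 0.27 in let-7 KO kidneys. Cap mesenchyme markers, the cells that make *Gdnf*, were higher in the same kidneys, with 6 of 7 tested genes raised in LIN28B OE, *Six2* among them at a log2 fold change of 3.35 (adjusted p = 0.000797, edgeR), and 0 of 7 in let-7 KO. The next by p were *Cited1* (3.33), *Meox2* (3.598) and *Crym* (1.55). Their part in the *Gdnf* values was not tested.

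Markers of other cell types stayed mostly short of the threshold in edgeR's fit. Of the 5 proximal tubule genes 1 fell in LIN28B OE kidneys, the phosphate transporter gene *Slc34a1*, with a log2 fold change of -1.20 (adjusted p = 0.000977), and 1 of 6 ureteric tip genes rose, *Etv4*. Lists for collecting duct, podocyte, stroma, mesangium and smooth muscle, blood, immune cells, adrenal and fat had 0 genes past the threshold in either model. Few genes could be tested for blood (1 of 4, with *Hba-a1*, *Hbb-bs* and *Hbb-bt* at 0 in every kidney), adrenal (1 of 4 in the LIN28B and 2 of 4 in the let-7 model) and fat (2 and 1 of 2). In LIN28B OE the stromal *Pdgfrb* (log2 fold change -0.81, adjusted p = 0.05003) and *Calb1* of the collecting duct (-0.73, 0.0573) came closest in edgeR's quasi-likelihood test. Every LIN28B OE kidney was below every control for both, while *Foxd1* (0.70) and *Meis1* (0.46) of the stroma list were above 0. Stroma genes summed to 476 to 568 CPM in LIN28B OE against 560 to 687 in controls, and the let-7 groups overlapped too. Podocyte genes, a check of the tissue, summed to 283 to 328 CPM in LIN28B OE and 293 to 429 in control kidneys. Immune genes summed to 25.2 to 42.1 CPM in LIN28B OE against 54.1 to 56.6 in controls and to 24.7 to 41.7 CPM in let-7 KO against 42.1 to 50.01 in let-7 WT, and adrenal genes to at most 4.90 CPM in any kidney. Mesangium and smooth muscle, where *Itga8* is known after birth, summed to 559 to 712 CPM in LIN28B OE against 722 to 803 in controls. The log2 fold changes within this list differed in sign there, from -0.92 for *Myh11* to 0.18 for *Tagln*. In the let-7 model the list summed to 889 to 1317 CPM in KO and 680 to 1115 CPM in WT, with a median log2 fold change of 0.44, whereas the estimate of *Itga8* was below 0 there. The part of mesangium, smooth muscle, stroma or cap mesenchyme in the *Itga8* values was not tested.

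**Figure D5:**
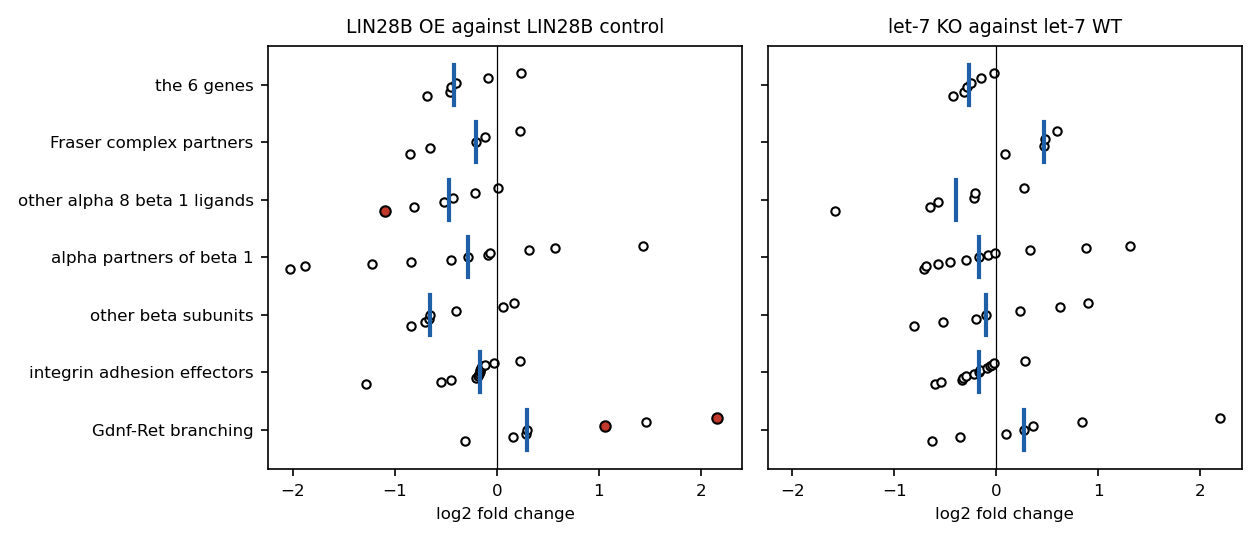
Log2 fold change (x axis) of each tested gene in the 6 genes and 6 related lists (y axis), for LIN28B OE against control on the left and let-7 KO against WT on the right, with filled red points for an adjusted p below 0.05 in edgeR and blue lines for medians. The filled points are *Spp1* (-1.10), *Etv4* (1.06) and *Gdnf* (2.16), all on the left.

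The genes whose log2 CPM followed each of the 6 most closely over the 12 kidneys were taken among all genes kept for 12 kidneys, as a description. For *Npnt* they were *Leprel1* (Pearson r = 0.973), *Slc9a2* (0.971) and *Enpep* (0.967). *Itga8* was followed by *Ppp2r1b* (0.958), *Abi2* (0.951) and *Ubfd1* (0.938), and *Itgb1* by *Heph* (0.965), *Tm9sf3* (0.959) and *Tapt1* (0.959). For *Frem1* they were *Txnip* (0.93), *Reep3* (0.92) and *Numb* (0.899), and for *Frem2* *Rreb1* (0.909), *Ltbp3* (0.88) and *Ly6c1* (0.833). *Fras1* had the loosest company, with *Lrig1* (0.853) and *Riok3* (0.812) among the closest. The 12 libraries share their differences in length slope and genotype, so these values describe the libraries as much as the genes.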

How the data were processed

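RNA of 12 whole kidneys had been made into libraries with a SMARTer Ultra Low kit and sequenced on a HiSeq instrument. The authors deposited raw read counts per gene symbol, 1 table per kidney. Per the submitters' processing notes, cutadapt, TopHat2 2.0.9, Bowtie2, SAMtools 0.1.19 and HTSeq were used with mm10. The annotation and the strand setting were not given in the sources used here. Groups came from the sample labels. The 6 genes and all lists were chosen with earlier results of these data known.

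Counts were fitted in edgeR 4.0.16 (R 4.3.3) within each model, with filterByExpr (minimum count 10, minimum total 15), TMM normalization, the quasi-likelihood test and Benjamini-Hochberg adjustment over all genes tested (threshold 0.05). The difference between the models and the comparison of controls came from one fit of 12 kidneys. Printed levels are TMM-scaled CPM over the 12 kidneys. Exact permutation tests used log2 CPM. Totals of 39926235 to 61872736 counts gave these genes 1603 to 55593 counts per kidney. Of the symbols, 22708 (94.4%) matched 1 GENCODE M21 gene on GRCm38, the build of mm10, which gave transcript lengths and 3′ UTRs. Named genes were the 6, a fixed set of 11, up to 4 passing genes per list and the 3 most like each of the 6, of which 1 is not reported here. *Six2*, *Lin28b*, the let-7 rows and *E030013I19Rik* were added as checks. Marker genes named though short of the threshold were picked after their values were seen. Alternatives were DESeq2 1.42.0, edgeR's exact test, RLE and upper-quartile normalization, a fit without a filter, a single fit over the 12 kidneys, a replicate block by litter, a minimum of 1 CPM in each kidney, the length slope as covariate, each kidney left out, and, added after seeing the data, litter 1 alone. Labels give a litter number for each kidney, and within a model mutant and control kidneys with the same number were taken as littermates. Deviations from group means correlated by -0.039 within and 0.048 between litters in the LIN28B model, and by -0.001 and 0.002 in the let-7 model. The fits were also run on simulated counts with known changes, drawn without the length slopes of these libraries, so that run cannot speak to them.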

Additional observations from a re-analysis of the deposited data

How the results depend on the processing

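Of 462 repeats of a value under another setting, 420 kept the direction and the side of the threshold, or, for counts of passing genes, the count. Since 0 of the 6 genes had passed in edgeR's quasi-likelihood test in any comparison, keeping the side meant staying short of the threshold. Repeats with an unadjusted p below 0.01 as threshold reuse the same estimate, so their direction could not change. In LIN28B OE kidneys the count of the 6 genes past the threshold was 0 in edgeR's quasi-likelihood test and became 1 (*Npnt*) with DESeq2, edgeR's exact test, at least 1 CPM in every kidney, or an unadjusted p below 0.01 as threshold, 2 (*Npnt* and *Itgb1*) with the length covariate, 3 (with *Itga8*) in litter 1 alone, a fit that drops the litter in which *Itga8* differed the other way and that called 16.3% of all genes, and 0 to 2 with 1 kidney left out. The passing log2 fold changes of *Npnt* were -0.66, -0.68, -0.69, -0.68, -0.55 and -0.85 in that order, those of *Itgb1* -0.32 and -0.68, and that of *Itga8* -0.67. With litter as a replicate block 0 of 6 passed in either model (LIN28B *Npnt* -0.68, adjusted p = 0.118, edgeR), and the block changed no call of the 6.

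The sign turned in these cases. *Itga8* became 0.19 (LIN28B) and 0.18 (let-7) with the length covariate, and 0.11 in the let-7 model in litter 1 alone. In the let-7 model *Itgb1* became 0.23 and 0.061 and *Frem1* 0.076 and 0.018 under the same settings, and *Fras1*, estimated near 0, became 0.00027 with DESeq2, 0.00031 with RLE, 0.010 with upper-quartile normalization, 0.020 with the covariate and 0.053 in litter 1 alone. The cause was not tested. With 1 kidney left out, LIN28B values ran from -0.55 to 0.14 (*Itga8*), -0.65 to -0.35 (*Itgb1*), -0.80 to -0.56 (*Npnt*), 0.14 to 0.33 (*Fras1*), -0.58 to -0.31 (*Frem1*) and -0.46 to -0.26 (*Frem2*). The let-7 values ran from -0.52 to -0.02, -0.59 to -0.04, -0.68 to -0.28, -0.11 to 0.072, -0.26 to -0.06 and -0.41 to -0.16 in the same order. For the difference between the models *Itga8* ran from -0.24 to 0.43, *Itgb1* from -0.42 to 0.10 and *Frem2* from -0.25 to 0.0085, and for the controls *Itga8* from -0.49 to 0.023 and *Itgb1* from -0.23 to 0.084. The signs turned for *Itga8* without the third LIN28B OE (-0.24) or the third let-7 WT kidney (-0.09), for *Itgb1* without the second let-7 WT (0.00055) or the first let-7 KO kidney (0.10) and for *Frem2* without the third let-7 KO kidney in the difference between the models, and without the second let-7 WT kidney among the controls. In these fits a group with 2 kidneys rests on few degrees of freedom.

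Genes called over the whole table ranged in the LIN28B model from 194 to 1246 with DESeq2, 1040 with edgeR's exact test, 967 with the length covariate, 401 with at least 1 CPM in every kidney, 95 with the litter block, 2602 in litter 1 alone and 21 to 2074 with 1 kidney left out. In the let-7 model 3 genes became 203 with DESeq2, 111 with the exact test, 1 with the covariate and 0 with the block.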
